A study of Drosophila melanogaster and Drosophila simulans and Drosophila yakuba with 4 samples.

Results

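The 10 genes described here are regulators of the cell cycle in D. melanogaster, a list of names matched by FlyBase identifier to 10 of the 15492 genes in the white prepupa table. Mitotic entry is represented by the cyclins CycA, CycB and CycB3, the kinase Cdk1 and the phosphatase stg (5 genes). Passage through G1 and into S phase is represented by CycD, CycE and Cdk2 (3 genes). The meiotic phosphatase is twe and the endocycle regulator is fzr (1 gene each). The list was drawn up by the roles of the genes and not by a threshold on their levels. Earlier results of these data were known when it was chosen.

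RNA was isolated from whole animals at the white prepupa stage, the start of pupariation, in D. melanogaster and in 3 further species that are not compared here. Neither strain nor sex is given in the sources used here, and the D. melanogaster data are 1 library. There are therefore no replicates and no tests between conditions. In the sample records, title and organism field are crossed between D. melanogaster and D. yakuba. The title was followed, since 14872 of the 15492 identifiers of the library used here belong to known D. melanogaster genes, against 0 of 15342 in the library titled D. yakuba. Values are FPKM, that is, fragments per kilobase of a transcript, scaled to library size, with the lower and upper bounds that Cufflinks gave each value. Over all genes the median FPKM was 6.90. A list of 7 larval fat body, salivary gland and gut products had FPKM values between 434.4 (glue gene Sgs7) and 14160 (Fbp2). It was chosen with earlier results of these data known and no other stage was measured, so it is no check of the stage.

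Cyclins bind and activate cyclin-dependent kinases, and a different cyclin and kinase pair drives each step of the cycle. Cdk1 with cyclins A, B and B3 drives mitosis, once the Cdc25 phosphatases stg (String) or twe (Twine) remove inhibitory phosphates from the kinase. Cdk2 with CycE starts DNA replication, and CycD acts in G1 with Cdk4. In many larval tissues of the fly the cycle changes into an endocycle, in which S phases follow each other without mitosis and chromosomes become polytene. The larval salivary gland is the best known case. fzr (Fizzy-related, the fly Cdh1) activates the anaphase-promoting complex, APC/C, which destroys mitotic cyclins, and it is needed for the switch to endocycles. At pupariation the polytene larval tissues stand beside diploid imaginal discs, the brain and the gonads, which hold dividing cells. The RNA here came from all of these together, so fewer cells that express a gene and less RNA per cell cannot be told apart.

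All 10 genes were detected, and their levels covered a 35.6-fold range. Cdk1 stood highest with an FPKM of 128.0 and CycE lowest with 3.59. All 10 had a lower bound above an FPKM of 1 and thus stood at FPKM 1 or more, as did 74.5% of all genes in the library. An FPKM of 10 or more was reached by 6 of the 10, against 43.3% of all genes. The median of the 10 was 16.0, against 6.90 over all genes. For the 7 members whose locus overlaps no other gene the median was 8.65. CycA, Cdk2 and twe, which are left out there, are all among those at 10 or more. Above the library median lay 7 of them, and stg, CycB3 and CycE lay below it. Among genes with an FPKM above 0 alone, fzr also lay below the middle, at percentile 48.5. Together they held 0.0440% of the reads implied by the bounds, which were 12038303 for the library.

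The 10 genes form 45 pairs, and in 42 of these the Cufflinks bounds did not overlap. The exceptions were twe with CycD, stg with CycB3, and CycB3 with CycE. Of the 9 steps between neighbors in the order, 6 thus exceeded the bounds and 3 did not. The largest step, at the top, was that of Cdk1 over CycA, with a ratio of 2.49 (95% exact binomial interval on implied reads 2.31 to 2.68). twe over CycD gave 1.01 (0.884 to 1.15), stg over CycB3 1.21 (0.996 to 1.48) and CycB3 over CycE 1.20 (0.947 to 1.52). These intervals cover counting error only, and none of them, nor the bounds, contains the variation between animals or libraries.

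**Figure D1:**
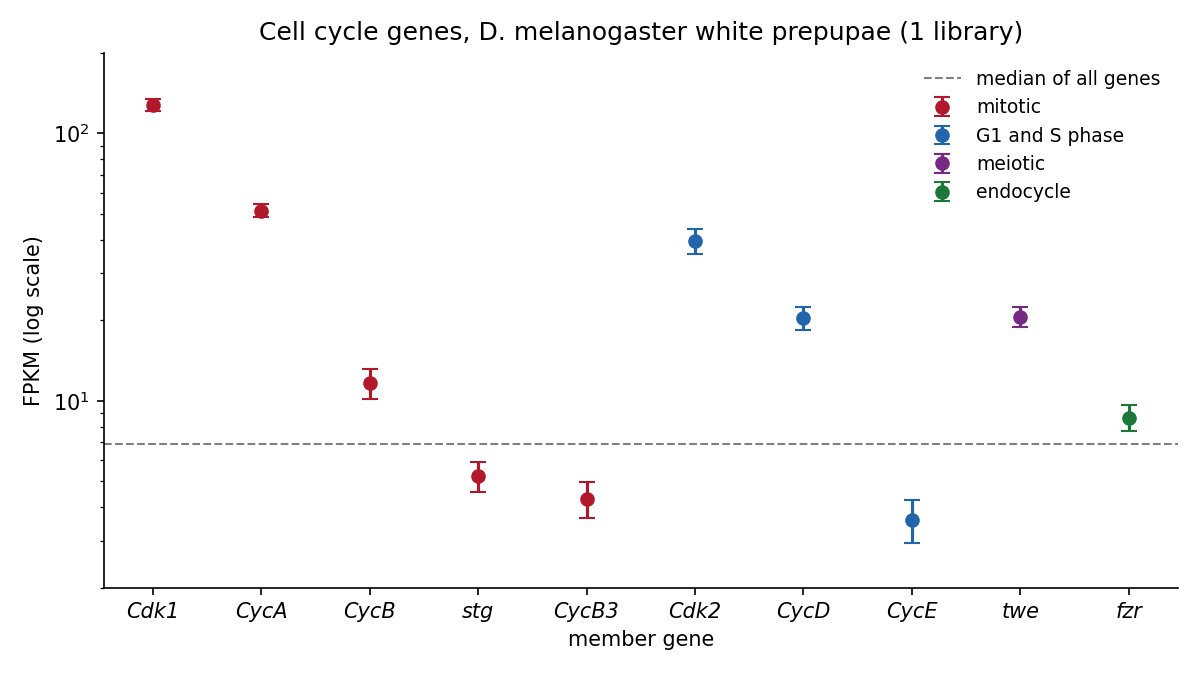
FPKM on a log axis for the 10 genes in the single D. melanogaster library, by role; points are the deposited values, bars the Cufflinks lower and upper bounds, and the dashed line the median of all genes (6.90). Cdk1 at 128.0 is highest, CycE at 3.59 lowest, and mitotic genes lie near both ends of the range.

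Cdk1, the kinase of mitotic entry, had an FPKM of 128.0 with bounds of 121.5 and 134.4, from 1578 implied reads. It lay at percentile 92.7 of all genes and ranked 1131 from the top. Its gene (FBgn0004106) is on the minus strand of chromosome 2L, from 10384739 to 10386262 in dm3, and has 1 annotated transcript of 3 exons. The deposited locus overlapped no other. The nearest genes, CG5096 at a gap of 15 bp and mRpS7, a mitochondrial ribosomal protein gene, at 399 bp, stood at 88.7 and 86.9.

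CycA, the cyclin whose loss blocks entry into mitosis in fly embryos, was the second highest member. Its FPKM was 51.4 with bounds of 48.6 and 54.3, from 1290 implied reads, at percentile 84.0. The gene (FBgn0000404) runs on chromosome 3L from 11819819 to 11826678, on the minus strand, with 7 exons in each of 2 transcripts. CG7264, with an FPKM of 10.4, lies inside the locus on the opposite strand, and by the newer annotation the exons of both share 0 bases. The neighbors CG32095 and CG43064 stood at 10.3 and 29.2.

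CycB, the second mitotic cyclin, had an FPKM of 11.6 with bounds of 10.1 and 13.1, from 244 implied reads, at percentile 59.8. It lies on chromosome 2R from 18691026 to 18694490 (FBgn0000405), on the minus strand, and has 4 annotated transcripts of 4 or 5 exons. It was thus far below CycA: the FPKM ratio of CycA to CycB was 4.42 (3.85 to 5.09). blw, a subunit of the mitochondrial ATP synthase, stood at 67.3 on its left, and stl at 0.101 on its right.

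CycB3, a mitotic cyclin with a role in anaphase and in female meiosis, was the lowest of the mitotic genes. Its FPKM was 4.30 with bounds of 3.66 and 4.95, from 177 implied reads, at percentile 41.9. The gene (FBgn0015625) is annotated with a single exon, on chromosome 3R from 20693656 to 20696538, on the minus strand. Its neighbors Elal at 4.96 and CG3744 at 4.17 had values near its own. CycB exceeded CycB3 by a ratio of 2.70 (2.22 to 3.30). By implied reads per kilobase of annotated exon this ratio was 1.31, and per kilobase of coding length 1.50. Its size thus differed between scales, and the cause was not tested.

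stg, the Cdc25 phosphatase of mitotic cycles, had an FPKM of 5.22 with bounds of 4.55 and 5.89, from 245 implied reads. It lay at percentile 45.3, below the library median. The gene (FBgn0003525) has 2 exons in each of 2 transcripts and lies on chromosome 3R from 25077548 to 25081522, on the minus strand. On its right no other gene of the table lies within 37942 bp, up to CG14506 at 5.33, and on its left SP1029 at 30.3 is 1374 bp away. Among the mitotic genes Cdk1 and its cyclin CycA were therefore high, and CycB lay between. The phosphatase stg and the cyclin CycB3 were both low, with 29.7-fold between Cdk1 and CycB3.

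Cdk2, the kinase partner of CycE, had an FPKM of 39.7 with bounds of 35.5 and 43.8, from 363 implied reads, at percentile 80.8. The gene (FBgn0004107) lies on chromosome 3R from 16561345 to 16563260, on the plus strand, with 6 or 7 exons in 3 transcripts. Its locus overlaps that of CG17267, on the opposite strand, by 173 bp, and CG17267 stood at 5.74. The nearest genes beside it were the pseudogene CR42786 at 1.61 and CG42322 at 0.705. In the newer dm6 annotation the exons of CG17267 cover 43.9% of those of Cdk2. These dm6 exons add up to 2299 bp, more than the deposited locus of 1916 bp, so that share need not hold for the deposited values. Whether reads were stranded is not stated in the sources used here, so reads from shared exons cannot be told apart.

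CycD, the G1 cyclin that promotes growth and division with Cdk4, had an FPKM of 20.4 with bounds of 18.4 and 22.5, from 415 implied reads. It lay at percentile 69.8. The gene (FBgn0010315) is on chromosome X from 15800855 to 15803709, on the minus strand, with 5 or 6 exons in 3 transcripts. The neighbors were shi, the fly dynamin, at 28.3 and Lrp4 at 1.38. Cdk4, its kinase partner, singled out after its value was seen, stood at 36.3.

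CycE, the cyclin that is limiting for S phase entry in many fly tissues and is also needed in endocycles, was the lowest of all 10 genes. Its FPKM was 3.59 with bounds of 2.95 and 4.24, from 124 implied reads, at percentile 39.3. The gene (FBgn0010382) is the longest of the members, with a locus of 20394 bp on chromosome 2L from 15727762 to 15748155. It lies on the minus strand and has 6 transcripts of 4 to 7 exons with 3 different coding sequences. In dm6, noncoding RNAs on the opposite strand that the table does not list cover 4.91% of its exons. Its neighbors were stol at 1.04 and ND-B17, a subunit of the mitochondrial complex I, at 48.0. The cyclin was thus far below both its kinase and the G1 cyclin: CycE to Cdk2 gave 0.0905 (0.0732 to 0.111), and CycE to CycD 0.176 (0.143 to 0.215). The distance from Cdk2 was smaller by implied reads per kilobase of exon, at 0.156, and of coding length, at 0.151.

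The median FPKM was 11.6 for the 5 mitotic genes and 20.4 for the 3 genes of G1 and S phase, a ratio of 0.569 (0.484 to 0.668, from the reads of CycB and CycD, the genes at the medians). The geometric means stood the other way round, at 17.7 for the mitotic genes and 14.3 for the G1 and S phase genes, a ratio of 1.24. The groups overlapped widely, with mitotic genes between 4.30 and 128.0 and G1 and S phase genes between 3.59 and 39.7. No order of these groups can therefore be given. Between the kinases themselves the order was plain on each scale. Cdk1 exceeded Cdk2 by a ratio of 3.23 (2.88 to 3.62) in FPKM and of 4.59 per kilobase of coding length. Per kilobase of exon the ratio was 9.22, but the dm6 exons of Cdk2 add up to 2299 bp, more than its deposited locus of 1916 bp.

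**Figure D2:**
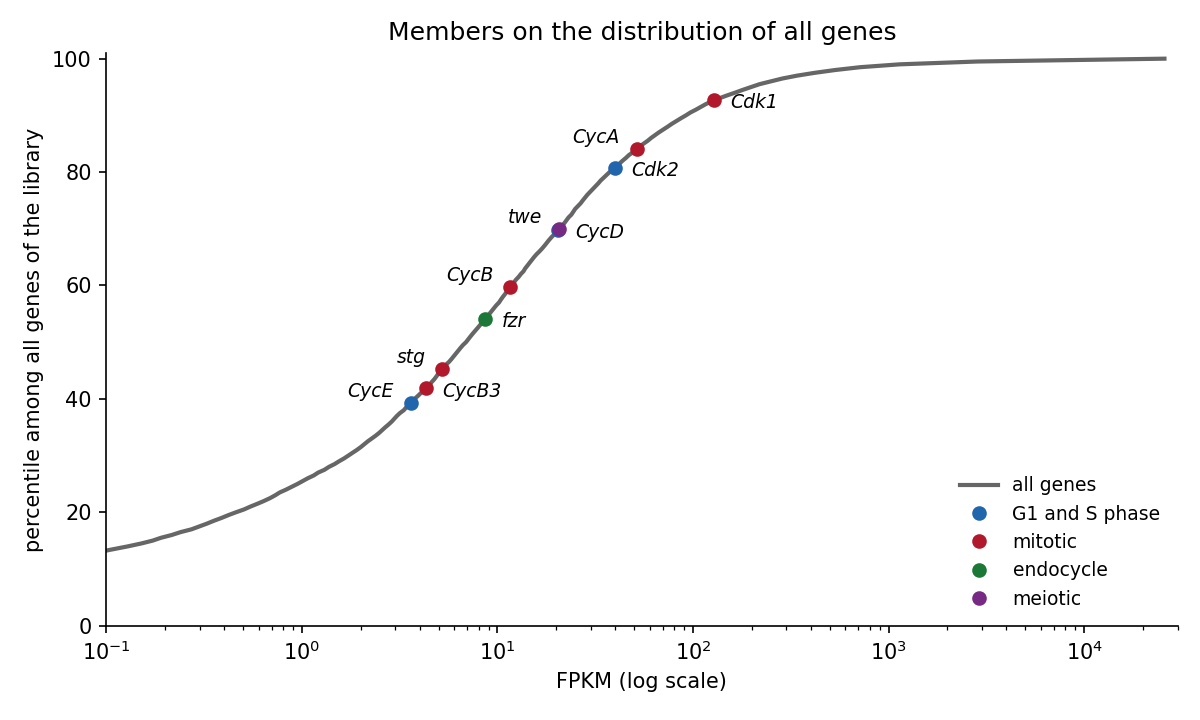
FPKM on a log axis against the percentile among all 15492 genes of the D. melanogaster library; the line is the distribution of all genes and each point a member, colored by role. The members run from percentile 39.3 (CycE) to percentile 92.7 (Cdk1), with twe and CycD at nearly the same place.

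twe, the second Cdc25 of the fly, which is needed for the meiotic divisions and for divisions of the early embryo, had an FPKM of 20.6 with bounds of 18.8 and 22.4, from 533 implied reads. It lay at percentile 69.9. The gene (FBgn0002673) lies on chromosome 2L from 16259414 to 16261877, on the minus strand, and has 4 transcripts of 2 exons. Its locus shares 254 bp with EndoGI, on the opposite strand, which stood higher at 58.8, and the exons of EndoGI cover 4.12% of those of twe in dm6. On its left PRL-1 stood at 273.8 and on its right CG4935 at 12.6. The mitotic Cdc25 was well below the meiotic one in this library: stg to twe gave 0.253 (0.217 to 0.295), or 0.357 per kilobase of exon and 0.409 per kilobase of coding length.

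A meiosis list held 18 measured genes (1 more, mnm, was not matched). Of these, 14 (77.8%) were at FPKM 1 or more and 4 (22.2%) at 10 or more, against 74.5% and 43.3% of all genes. The median was 1.72, or 1.19 for the 7 whose locus overlaps no other gene, below the 6.90 of all genes. The highest was bol at 51.5, whose RNA-binding protein is needed for translation of twe in spermatocytes, followed by mei-218, a gene of meiotic recombination, at 11.1. The lowest were plu at 0.1495 and png at 0.0874, both regulators of the first cycles of the egg and embryo and each with 1 implied read, within the 3 reads that a count of 0 allows. twe thus stood above 17 of the 18 genes of this list and below bol. Of the 14 genes of a testis list, which also holds bol, 13 were at FPKM 1 or more (92.9%, against 74.5% of all genes). The median was 12.3, or 6.25 for the 12 genes whose locus overlaps no other gene. The summed FPKM of the 14 was 1725. The highest were Mst84Dc at 743.6 and Mst87F at 721.4, the lowest comr at 2.25 and topi at 0.914, and none was at 0. Of the 4 measured female germline markers (nos and vas were not matched) bam, which is also expressed in the male germline, was at 6.44. The others were otu at 0.0987, bcd at 0.0975 and osk at 0.0501, each with a lower bound of 0 and within the 3 reads that a count of 0 allows. The part of the germline in the level of twe was not tested.

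fzr had an FPKM of 8.65 with bounds of 7.69 and 9.61, from 324 implied reads, at percentile 54.1. The gene (FBgn0262699) is on the minus strand of chromosome X, from 4561315 to 4573619, with 5 exons in each of 2 transcripts. Its locus overlapped no other, and its neighbors were low, with CG3009 at 0.323 and Pp2C1, a protein phosphatase, at 2.55. fzr exceeded stg, the mitotic phosphatase, by a ratio of 1.66 (1.40 to 1.96). Its paralog fzy, the fly Cdc20, which activates the same complex in mitosis, stood at 12.6 with bounds of 11.2 and 13.9. fzr to fzy gave 0.689 (0.590 to 0.804), but per kilobase of coding length the ratio was 1.04. The order of these paralogs thus differed between scales.

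**Figure D3:**
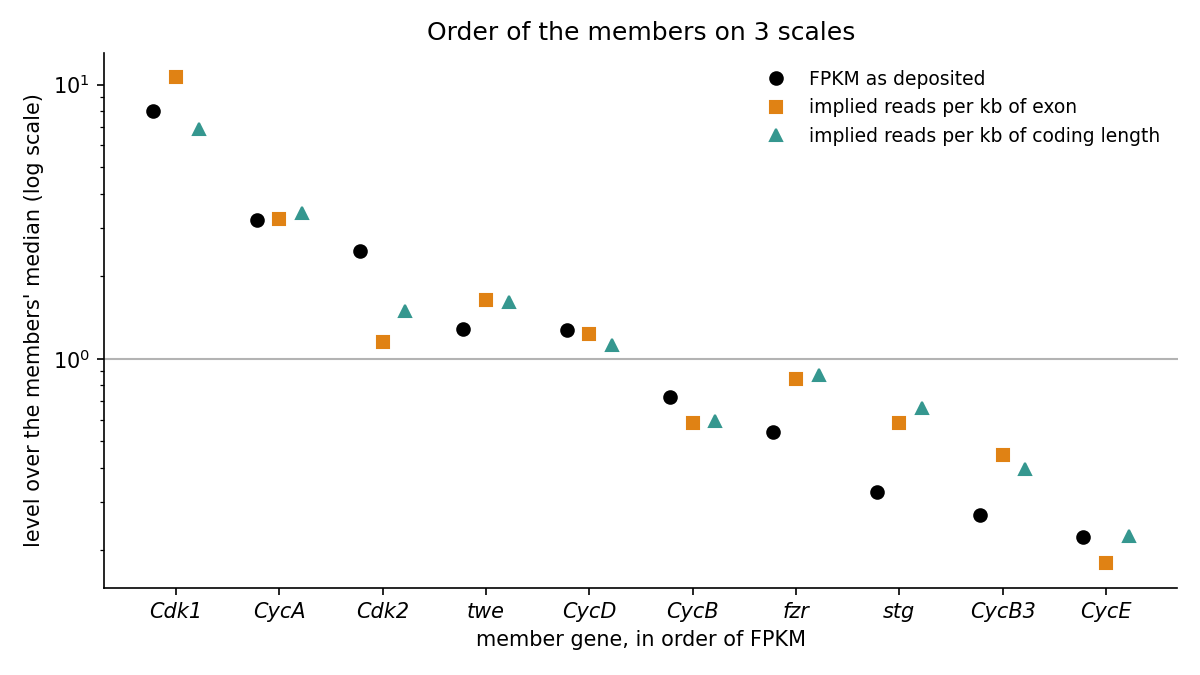
Level of each member divided by the median of the 10 members, on a log axis, as deposited FPKM (circles), implied reads per kilobase of annotated exon (squares) and per kilobase of coding length (triangles). Cdk1 and CycA are first and second and CycE last on all 3 scales, while the places of Cdk2, twe, CycD, CycB, fzr and stg depend on the scale and CycB3 is ninth throughout.

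FPKM depends on the transcript length that Cufflinks used. Set against the annotation of dm6, the order of the 42 pairs with separate bounds was kept in all but 3 by implied reads per kilobase of exon. The 3 exceptions were Cdk2 with twe, Cdk2 with CycD, and CycB with fzr. Per kilobase of coding length the exceptions were again 3: Cdk2 with twe, CycB with fzr, and CycB with stg. The range from Cdk1 to CycE was 59.2-fold per kilobase of exon and 30.4-fold per kilobase of coding length. The implied reads themselves are approximate. Solving the bounds for reads gave whole numbers within 0.05 for 69.3% of the genes with fewer than 300 such reads, and for 0 of the 4 members in this range, CycB, stg, CycB3 and CycE.

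Beyond the 10 members, 141 genes in 9 lists of cell cycle genes were measured, of which 91.5% were at FPKM 1 or more and 44.0% at 10 or more, against 74.5% and 43.3% of all genes. Their median was 8.67. Of the 141, 62 lie in loci that overlap another gene (44.0%, against 41.3% of all genes), where reads of both may mix. How far this touches their levels was not tested.

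Of the other cyclins, Cdks and their partners, 16 of 16 measured were at FPKM 1 or more and 11 (68.8%) at 10 or more. Over all genes the shares were 74.5% and 43.3%. The median of the 16 was 29.3, or 19.8 for the 12 whose locus overlaps no other gene (Cdk14 was not matched). CycG at 96.3 and Cks85A, a small subunit that binds Cdks, at 63.1 stood highest, and Cdk12, a kinase of transcription elongation, at 5.16 and CycJ at 3.83 lowest. Cdk1 at 128.0 thus exceeded every measured gene of this list. CycE at 3.59 had a lower value than every one, though its bounds overlap those of CycJ.

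Of 8 inhibitors and phosphatase partners all were at FPKM 1 or more and 6 (75.0%) at 10 or more. Over all genes the shares were 74.5% and 43.3%. The median of the 8 was 19.9, as it was for the 6 whose locus overlaps no other gene. endos, an inhibitor of the phosphatase PP2A, at 374.0 and mts, the catalytic subunit of PP2A, at 201.3 stood highest. The inhibitory kinases of Cdk1, Wee1 at 5.98 and Myt1 at 4.00, which oppose stg and twe, stood lowest. dap, the p21-type inhibitor of CycE and Cdk2, singled out after its value was seen, stood at 24.0, above CycE and below Cdk2.

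Of 8 regulators of G1 and S phase transcription all were at FPKM 1 or more and 3 (37.5%) at 10 or more. Over all genes the shares were 74.5% and 43.3%. The median of the 8 was 8.50, or 10.3 for the 4 whose locus overlaps no other gene. The repressor E2f2 at 37.9 and Dp, the partner of the E2F proteins, at 19.3 stood highest, and mip120 at 2.99 and mip130 at 2.11 lowest. E2f1, the activator of S phase genes including CycE, singled out after its value was seen, was at 11.0. Of 31 measured DNA replication genes 28 (90.3%) were at FPKM 1 or more and 11 (35.5%) at 10 or more. The median of the 31 was 8.83, or 11.7 for the 17 whose locus overlaps no other gene (Mcm3 and Orc1 were not matched). PCNA, the sliding clamp, at 111.1 and RnrS, the small subunit of ribonucleotide reductase, at 78.4 stood highest. The DNA polymerase subunits PolA2 at 0.613 and PolE1 at 0.314 stood lowest. Replication genes thus lay on both sides of Cdk2 and, at the bottom, below CycE.

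Of 28 measured genes of the mitotic machinery 26 (92.9%) were at FPKM 1 or more and 11 (39.3%) at 10 or more. Over all genes the shares were 74.5% and 43.3%. The median of the 28 was 7.82, or 6.45 for the 17 whose locus overlaps no other gene (ald was not matched). The cohesin subunit vtd at 130.5 and the checkpoint protein Bub3 at 89.4 stood highest. The kinetochore protein Ndc80 at 0.920 and the centromeric histone cid at 0.704 stood lowest. Among these 28 only vtd had a higher value than Cdk1, with bounds of 126.5 and 134.4 that overlap those of Cdk1. Of 15 genes of APC/C and its activators 14 (93.3%) were at FPKM 1 or more and 6 (40.0%) at 10 or more. The median of the 15 was 6.64, or 5.51 for the 6 whose locus overlaps no other gene. The ubiquitin-conjugating enzyme vih at 108.1 and APC10 at 35.2 stood highest, Cdc23 at 1.19 and APC7 at 0.208 lowest. fzr at 8.65 was thus above the median of this list. Its relatives fzr2 at 3.70 and cort, an APC/C activator of female meiosis, at 1.66 stood lower, and both were picked with their values known.

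Of 7 measured genes of SCF ubiquitin ligases and endocycle regulation 6 (85.7%) were at FPKM 1 or more. All 6 were also at 10 or more. Over all genes the shares were 74.5% and 43.3%. The median of the 7 was 23.8, or 11.1 for the 4 whose locus overlaps no other gene (slmb was not matched). The SCF subunits SkpA at 660.3 and Roc1a at 565.4 stood highest. SuUR, which slows replication of heterochromatin in polytene nuclei, at 11.0, and Rif1, which acts in the same process, at 0.959 stood lowest. ago, the SCF component that targets CycE for destruction, singled out after its value was seen, was at 11.3, above CycE. Of 10 checkpoint genes 9 (90.0%) were at FPKM 1 or more and 4 (40.0%) at 10 or more. The median of the 10 was 6.72, or 3.77 for the 6 whose locus overlaps no other gene. grp, the fly Chk1, at 56.6 and p53 at 15.7 stood highest, and Claspin at 2.34 and mei-41, the fly ATR, at 0.349 lowest.

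**Figure D4:**
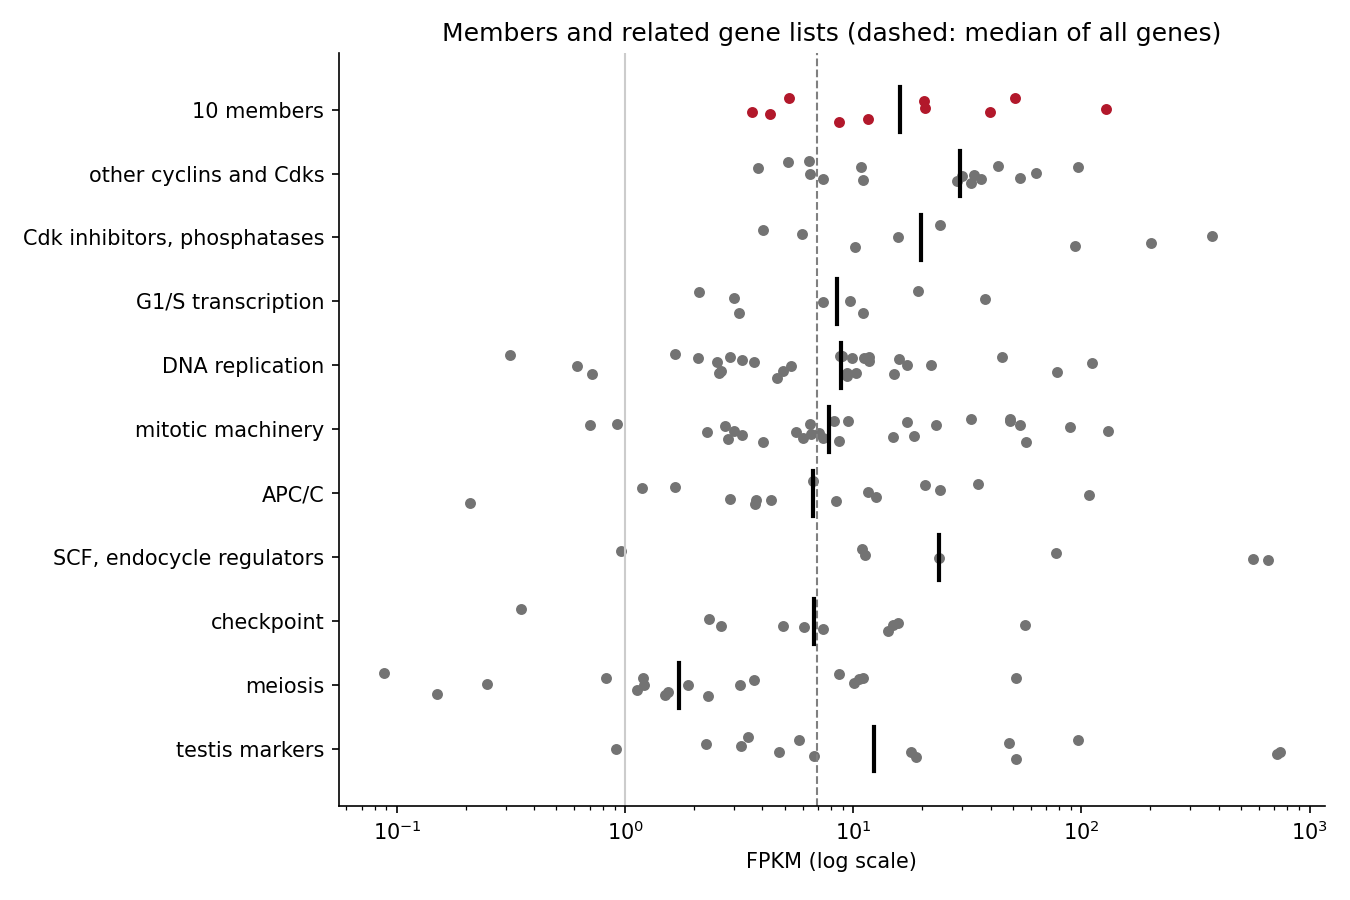
FPKM on a log axis of the 10 members (top), of 9 lists of related cell cycle genes and of the testis markers; each point is a gene, the black bar the list's median, the dashed line the median of all genes (6.90) and the pale line an FPKM of 1. The members' median is 16.0, that of the other cyclins and Cdks 29.3 and that of the meiosis genes 1.72, with genes in overlapping loci included.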

How the data were processed

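Total RNA of whole white prepupae was sequenced from one end of each fragment. The authors used TopHat for alignment after trimming, and Cufflinks for quantification. The FPKM values deposited by the authors carry lower and upper bounds and a status, OK for 15403 of 15494 rows and for all 10 members. Bowtie, SAMtools and dm3 appear in the submitters' processing notes. Neither tool versions nor strandedness is given in the sources used here. Only the D. melanogaster table was analysed, and genes were not matched between species.

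Rows of a gene were summed. Reads were solved from bounds assumed to lie 2 FPKM over the square root of the reads on either side of the value. This and the exact binomial (Clopper-Pearson) 95% interval for ratios were first checked on inputs with known answers. FPKM entered no count model. Starts in the table were raised by 1, which equals the dm6 start for 1960 of 2860 genes on 2L. Exons, strand and lengths came from Ensembl release 115 (dm6). Percentiles count genes at or below a value.

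The members and lists were chosen with earlier results of these data known. Named genes were all members, the 2 highest and 2 lowest genes of each list, genes of 8 fixed ratios, and overlapping and nearest genes. Cdk4, dap, E2f1, ago, fzr2 and cort were added with their values known. No gene was sought for a similar pattern, since 1 library holds none. Alternatives were an FPKM minimum of 0.1 or 5, a pseudocount of 1, rows with status OK, exon or coding length, geometric means, loci without overlap, CycD left out, and other bases for percentiles. Python 3.11.15 was used with scipy 1.17.1, pandas 2.3.3, numpy 2.4.6 and matplotlib 3.10.9.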

Additional observations from a re-analysis of the deposited data

How the results depend on the processing

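Of the 8 ratios, all kept their side of 1 with a pseudocount of 1 and per kilobase of exon, and 7 per kilobase of coding length, where fzr to fzy turned to 1.04. With a pseudocount of 1, CycE to Cdk2 was 0.113. Per kilobase of exon Cdk1 to Cdk2 was 9.22, CycA to CycB 5.51, CycB to CycB3 1.31, CycE to Cdk2 0.156 and stg to twe 0.357. Per kilobase of coding length these were 4.59, 5.70, 1.50, 0.151 and 0.409, and fzr to stg 1.33. Each lay outside the counting interval of its FPKM ratio, and the cause was not tested. The ratio of mitotic to G1 and S phase genes turned to 1.24 by geometric means and was 0.701 without members whose loci overlap another gene. Without CycD it stayed within its interval. At an FPKM minimum of 5 the genes passing were 5 of 8 for G1 and S phase transcription and 18 of 31 for replication. For APC/C they were 8 of 15 and for meiosis 5 of 18. Among all genes an FPKM of 5 lay between percentiles 44.5 and 45. Without overlapping loci fewer genes remain by construction. Of these, the genes at FPKM 1 or more were 4 of 4 for G1 and S phase transcription. They were 15 of 17 for replication, 15 of 17 for the mitotic machinery and 5 of 6 for APC/C. For SCF and endocycle regulators they were 3 of 4, for checkpoint genes 5 of 6 and for meiosis 4 of 7. The share among all genes without overlap was not computed. A minimum of 0.1 and rows with status OK left all 13 counts within 1.5 times. Percentiles were lower for all 10 members among genes with FPKM above 0 (CycE 31.9, fzr 48.5, Cdk1 91.8) and among protein-coding genes (35.0, 50.7 and 92.3 for the same genes). fzr thus crossed the middle in the first of these. The largest row of a gene changed no percentile, since each member has 1 row. No paired analysis was possible because the design holds 1 library. Variation between animals and libraries is thus unknown.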

Other observations

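Markers of tissues that hold dividing or polytene cells were measured in the same library. Of 6 neuroblast markers all reached FPKM 1, as did 74.5% of all genes. Their median was 3.18, from 11.9 for pros and 4.76 for ase to 1.42 for wor and 1.10 for mira. Of 5 measured imaginal disc markers (rn was not matched) all reached FPKM 1. Their median was 3.64, from 44.2 for hth and 5.30 for Dll to 3.11 for nub and 1.06 for vg. Both medians lay below the 6.90 of all genes. The 7 products of polytene larval tissue had a median of 5787. These lists mark tissues and not cell cycle stages, and several of their genes are expressed in more than 1 tissue. How much each tissue gives to the level of a member was not tested.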
